A study of Mus musculus with 4 samples.

Results

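The E13.5 epithelium of the mammary region was examined here as 3 classes of single cells: mammary bud, epidermis and periderm. The classes were chosen by the cells' own counts of unique molecular identifiers (UMIs, 1 per captured transcript). Kept cells of the E13.5 library held at least 5000 UMIs, with at most 6% of them from mitochondrial genes. Of these, epithelial cells had at least 10 UMIs over Epcam, Krt8, Krt18, Krt5, Krt14 and Krt15, and more than 2 times as many as over the collagen genes Col1a1, Col1a2 and Col3a1. Periderm cells were selected on at least 5 UMIs over Krt17, Gabrp and Hopx, with that sum above the sum over Pthlh, Msx1 and Ndnf. Bud cells were then selected on at least 3 UMIs over Pthlh, Msx1 and Ndnf, and the remaining epithelial cells formed the epidermis class. Of 981 barcodes in the library, 235 were kept, and 98 of those passed the epithelial gate (41.7%, exact binomial 95% interval 35.3 to 48.3). They comprised 19 bud cells (19.4%, 12.1 to 28.6), 46 epidermis cells (46.9%, 36.8 to 57.3) and 33 periderm cells (33.7%, 24.4 to 43.9). Another 129 kept cells were mesenchymal by the same collagen genes, and 8 fell in neither group.

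The series holds 4 single-cell RNA-seq libraries of mouse mammary rudiments, 1 per stage from E13.5 through E14.5 and E15.5 to birth (P0), made to follow the epithelium and its mesenchyme through early branching. All animals were wild type and female, labelled as WT C57B6 mice (the methods name the substrain C57 B6/N), and no sample carried a transgene or received a treatment. Each library pooled rudiments of all the mammary bud pairs from several embryos of more than one dam, so cells cannot be assigned to an embryo. Dissociated cells were sorted as EpCAM-positive and EpCAM-negative after CD45+, CD31+ and Ter119+ cells had been excluded, and the class shares therefore reflect the dissection and the sort as well as the tissue. With 1 library at E13.5 there is no replicate: the 3 classes were compared as summed UMIs, every interval below covers counting error only, and no p-value was computed. Between stages, age and library cannot be told apart.

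The mammary bud is an inward growth of the embryonic surface epithelium, specified by Wnt, FGF and ectodysplasin signals and by the transcription factors Tbx3 and Gata3. Its cells secrete parathyroid hormone-related peptide (Pthlh), which with BMP signalling patterns the mesenchyme around the bud and, in male embryos, primes the bud for removal. The basal epidermis is anchored to the basement membrane by hemidesmosomes and depends on the transcription factor Trp63. The periderm is a transient sheet of flattened cells over the epidermis that is joined by tight junctions and shed before birth.

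Depth differed between the classes. Bud cells held 8825 to 33708 UMIs (median 16883), epidermis cells 8567 to 48318 (median 23798), and periderm cells had a median of 18024, against 16573 in the mesenchyme. The sums over each class were 328938, 1110683 and 602020 UMIs in bud, epidermis and periderm, and levels are given as CPM, the UMIs of a gene scaled to the same total in each class, with an exact 95% Poisson interval. When each cell was thinned to 5000 UMIs, the median number of genes detected was 2056, 1866 and 1995. A count of 0 over a whole class allows a level of up to 9.12 CPM in the bud, 2.70 in the epidermis and 4.98 in the periderm, taking 3 UMIs as the limit.

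The marker sums left a gap at the bud gate but hardly any at the periderm gate. The bud sum ran from 5 to 57 in bud cells (median 16), and no cell held 3 or 4. In the epidermis class, 37 of 46 cells held none of these transcripts and 9 held 1 or 2. The periderm sum ran from 6 to 179 in periderm cells (median 53), where 2 cells lay between 5 and 9, while 8 epidermis cells lay just under the gate with 3 or 4. Within the classes, 13 of 19 bud cells held UMIs of Msx1, Pthlh and Ndnf together, and 29 of 33 periderm cells held Krt17, Gabrp and Hopx together. The boundary between bud and periderm was less sharp, since 3 bud cells held at least 3 UMIs of both sets, 1 of them with 11 UMIs of each. A doublet caller marked 1 bud cell and none of the epidermis and periderm cells, and all were kept. These values describe the choice of the cells and support nothing about them.

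**Figure D1:**
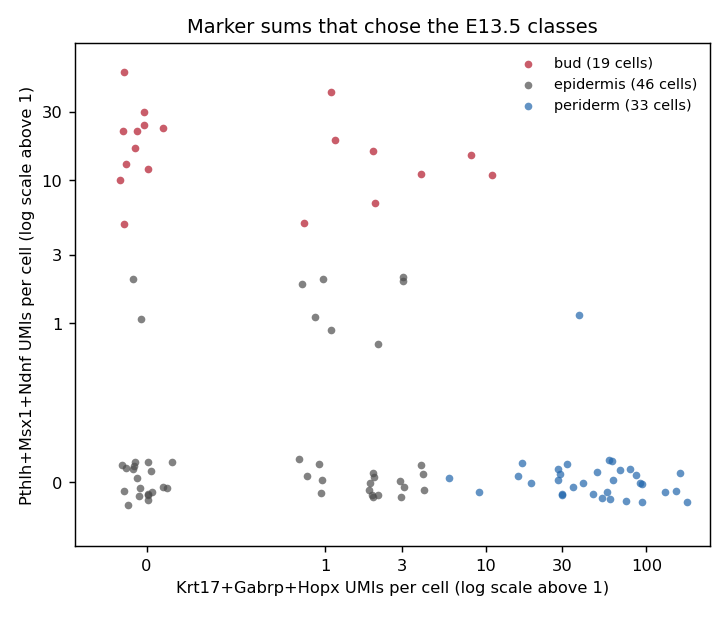
Each point is 1 of the 98 epithelial cells at E13.5; the x axis gives its UMIs over Krt17, Gabrp and Hopx and the y axis its UMIs over Pthlh, Msx1 and Ndnf, with small random offsets and log scales above 1. The 19 bud cells start at 5 UMIs on the y axis, the 33 periderm cells at 6 UMIs on the x axis, and the 46 epidermis cells stay at or below 2 and 4.

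The class names were set beside genes that the split did not use, and not all of them followed the names. Cxcl14, a chemokine of the surface epithelium, had 2015 CPM (1932 to 2100) in the epidermis, 693 (606 to 789) in the bud and 306 (263 to 353) in the periderm. It had been named as a marker from these same data beforehand, so its level is no independent check. The bud transcription factors Tbx3 and Gata3 had 404 and 474 CPM in the bud class against 73.8 and 85.5 in the epidermis class. Among periderm genes, Krt19 had 239 CPM in the periderm class, where the epidermis class had 11.7 and the bud class 6.08. In bud, epidermis and periderm, Sostdc1 had 562, 73.8 and 3.32 CPM, Cldn6 185, 39.6 and 254, and Col17a1 24.3, 133 and 8.31. Other markers fell short of 2-fold: Wnt10b and Lef1 had 88.2 and 195 CPM in the bud against 99.0 and 104 in the epidermis. Sfn and Grhl3 had 1306 and 434 CPM in the periderm against 1236 and 259 in the epidermis, and Sfn had 2210 in the bud. Trp63 had 174 CPM in the epidermis but 228 in the bud. On the reference list of 32 periderm genes, 11 of the 20 counted members outside the gates were at least 2-fold higher in periderm than in epidermis and 1 (Aqp3) was lower; 5 gate genes on the list are left out of this count. Over all genes the shares were 12.8% and 8.80%. The list was not particular to the periderm class, since 7 of 17 such members were also higher and 5 lower in bud than in epidermis (11.2% and 6.45% over all genes). Ly6d and Plet1, also on that list, were near 0 in every class (at most 1 and 9 UMIs).

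Markers of other cell types were low in the epithelium. None of the 8 muscle, 8 endothelial or 13 blood genes reached 20 UMIs over any pair of classes. The endothelial list summed to 3, 1 and 0 UMIs in bud, epidermis and periderm, with Cdh5 and Kdr at 0, and the blood list to 0, 1 and 2. The Merkel cell list summed to 3, 18 and 4 UMIs, of which Piezo2 gave 3, 16 and 2, with 1 UMI of Atoh1 in the epidermis and 2 of Isl1 in the periderm. The melanocyte and neural crest list summed to 44, 115 and 92 UMIs, of which Erbb3, which epithelia also express, gave 28, 104 and 85. Mesenchymal genes summed to 806 CPM in the bud, 356 in the epidermis and 208 in the periderm, against 9330 CPM in the mesenchyme. These sums include collagen genes of the gates, with Col3a1 the top gene in the mesenchyme (4272 of 21814 UMIs). The gates therefore set part of this contrast. In the bud most of the sum was Vim (224 of 265 UMIs), and Dcn gave 1 UMI. Col1a1, Col1a2 and Col3a1 gave 2, 4 and 4 UMIs there, but the epithelial gate kept these genes low, so their counts bear on nothing. The part of these transcripts in the differences between classes was not tested.

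Across all genes with at least 20 UMIs over the pair compared, a gene was counted as higher or lower when its CPM ratio was at least 2-fold and the exact 95% interval of the ratio excluded 1. Between bud and epidermis 6663 genes were compared: 749 (11.2%) were counted higher in the bud and 430 (6.45%) lower. Between periderm and epidermis, 921 of 7208 genes (12.8%) were higher in the periderm and 634 (8.80%) lower. Between bud and periderm, 674 of 5733 genes (11.8%) were higher in the bud and 668 (11.7%) lower. The classes were formed from the cells' own transcripts, so these counts describe them and test nothing. A gene of low level passes the minimum mainly through the class where it is high, which also holds for the lists below. The lists' counts are read beside these shares, and levels are not compared between genes, since UMIs come from transcript ends. The median log2 ratio over all genes was 0.15 for bud over epidermis, 0.04 for periderm over epidermis and 0.02 for bud over periderm. After this shift was removed, the first comparison gave 556 higher and 562 lower genes in place of 749 and 430, so that higher genes made up 49.7% of those counted instead of 63.5%.

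**Figure D2:**
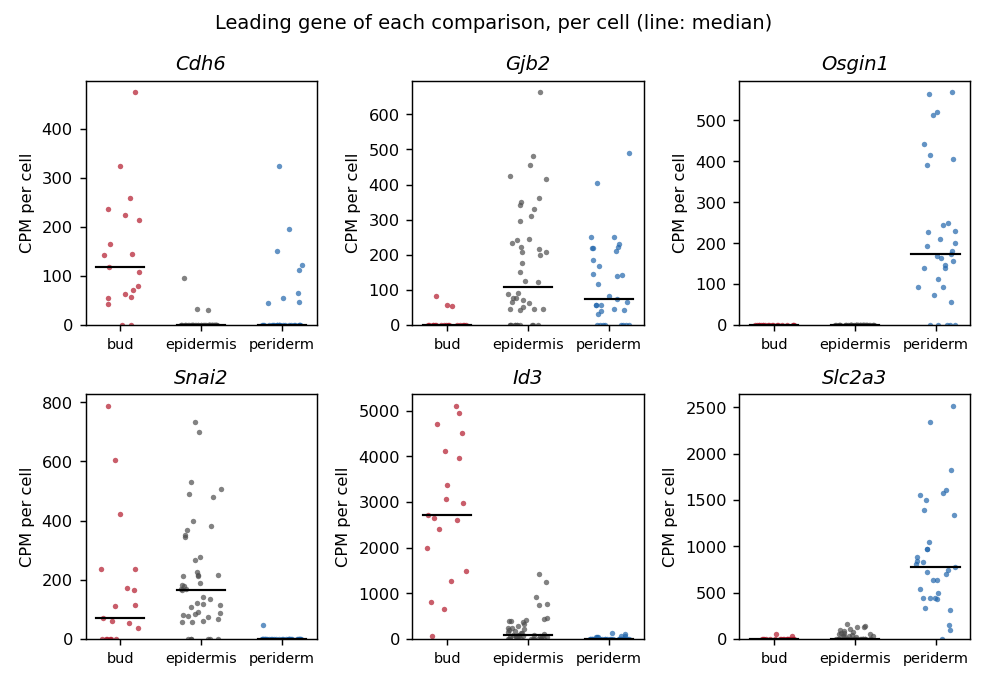
CPM per cell (y axis, linear) of the leading gene in each direction of the 3 comparisons; points are cells and black lines are medians. Cdh6 and Id3 have their highest medians in the bud, Gjb2 is at 3 UMIs in the whole bud, Snai2 at 1 UMI in the whole periderm, and Osgin1 is detected in the periderm alone.

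The genes that set the bud apart from the epidermis were led by Cdh6, a cadherin. It had 161 CPM (121 to 211) in the bud and 2.70 (0.557 to 7.89) in the epidermis, a ratio of 59.7 (19.3 to 298). In single bud cells it ran from 0 through a median of 118 to 475 CPM, and 17 of 19 bud cells but 3 of 46 epidermis cells held it. The periderm had 34.9 CPM and the mesenchyme 47.0, with Cdh6 in 36 of 129 cells. Dusp2, a MAP kinase phosphatase, was 33.8-fold higher (15.6 to 87.1), and Dach2, a nuclear cofactor, 26.1-fold (13.9 to 54.2). Dusp2 was found in 13 bud cells and in 1 mesenchymal cell. Epha7, an ephrin receptor, was 37.1-fold higher (9.13 to 326), from 2 UMIs in the epidermis. Sptlc3, a subunit of serine palmitoyltransferase, was 74.3-fold higher (12.0 to 3066) on a single epidermal UMI. Gfod2 also passed the rule for leading genes, but 93.3% of its 75 bud UMIs lay in 1 cell, and its log2 ratio went from 4.60 to 1.26 without the top cell of each class.

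Several BMP pathway genes were higher in the bud than in the epidermis. BMPs act through receptor kinases and SMAD proteins, and the Id genes, which encode inhibitors of basic helix-loop-helix factors, are textbook targets. Of 21 genes on a BMP and TGF-beta list, 16 could be counted between bud and epidermis; 10 were higher in the bud, where 11.2% of all genes compared were, 6 were neither and none was lower, with a median log2 ratio of 2.51 beside 0.15 over all genes. The ligands Bmp2 and Bmp4 had 137 and 48.6 CPM in the bud against 11.7 and 4.50 in the epidermis, ratios of 11.7 (6.20 to 23.6) and 10.8 (3.78 to 37.7). The mesenchyme held both ligands too, at 56.0 and 72.7 CPM. The inhibitory SMAD genes Smad6 and Smad7 had 45.6 and 173 CPM in the bud against 6.30 and 22.5 in the epidermis, the second a ratio of 7.70 (4.73 to 12.9). Msx2, a homeobox target, had 100 CPM in the bud, 24.3 in the epidermis and 89.7 in the periderm, so that it did not separate bud from periderm (ratio 1.12, 0.703 to 1.76).

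Id3 had 2824 CPM in the bud (2646 to 3012), 206 in the epidermis and 16.6 in the periderm. Every bud cell held it, from 70.2 through a median of 2723 to 5099 CPM, while the epidermis ran from 0 through 86.0 to 1431 and the periderm from 0 through 0 to 126. The bud and epidermis ranges overlapped, whereas only 1 bud cell lay below the highest periderm cell. The bud was 13.7-fold above the epidermis (11.8 to 15.9) and 170-fold above the periderm (92.0 to 356). Id1 and Id2 were 21.4-fold (15.2 to 30.8) and 18.5-fold (13.6 to 25.5) above the epidermis, and Id4 had 277 CPM against 21.6. The periderm split the family: Id1 was at 390 CPM against 35.1 in the epidermis and Id2 was 3.65-fold higher (2.57 to 5.24), whereas Id3 was 12.4-fold lower (6.63 to 26.2) and Id4 4.34-fold lower (1.32 to 22.5). Id1, Id2 and Id3 occurred together in 16 of 19 bud cells, 6 of 46 epidermis cells and 3 of 33 periderm cells. In the mesenchyme 63 of 129 cells held all of them (48.8%) at a median depth of 16573 UMIs, against 16883 in the bud.

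Because these family members differed in the bud in the same direction, the 250 bases before the start of those in the RefSeq promoter table (GRCm38.p6) are shown, 5′ to 3′ on the gene's strand, with the palindromic element GGCGCC, a GC-rich sequence that SMAD proteins bind, in capitals.
Id2 (chr12:25096093-25096342, minus strand): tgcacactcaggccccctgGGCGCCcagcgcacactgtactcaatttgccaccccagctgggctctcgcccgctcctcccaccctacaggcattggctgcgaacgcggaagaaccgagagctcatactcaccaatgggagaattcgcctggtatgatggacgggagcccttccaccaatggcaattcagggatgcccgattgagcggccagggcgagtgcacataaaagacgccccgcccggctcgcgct
Id3 (chr4:136143572-136143821, plus strand): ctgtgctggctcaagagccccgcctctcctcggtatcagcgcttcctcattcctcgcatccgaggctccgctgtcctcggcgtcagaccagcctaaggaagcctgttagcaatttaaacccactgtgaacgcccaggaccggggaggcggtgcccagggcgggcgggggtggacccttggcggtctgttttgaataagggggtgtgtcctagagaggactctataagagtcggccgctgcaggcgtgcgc
Id4 (chr13:48260866-48261115, plus strand): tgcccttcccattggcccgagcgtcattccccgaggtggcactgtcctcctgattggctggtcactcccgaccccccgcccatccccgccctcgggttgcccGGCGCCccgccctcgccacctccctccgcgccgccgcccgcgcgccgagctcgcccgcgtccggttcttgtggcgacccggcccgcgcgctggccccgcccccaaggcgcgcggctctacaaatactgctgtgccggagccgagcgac
The element occurred once in the Id2 window, with its first base 231 bases before the start, once in the Id4 window at 148 bases, and not in the Id3 window. Over 27025 promoters of the table, 9.54% of windows of this length hold it, and 6 of the 41 leading genes matched to the table did (of 53 leading genes). GC content was 62.8%, 62.8% and 75.6% in the order printed. A match is a match of letters only; binding was not measured.

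Wnt genes are given by role. Among 13 Wnt ligands, 7 were counted between bud and epidermis, 3 higher in the bud, 1 lower and 3 neither (median log2 ratio 0.07), where 11.2% of all genes were higher and 6.45% lower. Wnt6 had 727 CPM (637 to 825) in the bud, 306 (274 to 340) in the epidermis and 297 (255 to 344) in the periderm, and every bud cell held it, from 218 through a median of 670 to 1517 CPM. Wnt10a was 2.43-fold (1.25 to 4.64) above the epidermis. Wnt5a had 48.6 CPM in the bud and 8.10 in the epidermis, but 204 in the mesenchyme. Wnt7b was 4.96-fold lower in the bud (1.85 to 18.7). Wnt3 and Wnt10b did not separate bud from epidermis, with ratios of 1.05 (0.794 to 1.36) and an inverse of 1.12 (0.740 to 1.75), yet both were scarce in the periderm: Wnt3 was 32.4-fold (12.5 to 120) and Wnt10b 9.94-fold (4.42 to 27.7) lower there than in the epidermis. Wnt11 was the ligand counted higher in the periderm, at 48.2 CPM against 11.7.

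Among the receptors, 3 of 9 counted Wnt receptor genes were higher in the bud than in the epidermis (Fzd3, Fzd7 and Lgr6) and Fzd1 lower, beside the same shares of 11.2% and 6.45% over all genes. Fzd10 had 116 CPM in the bud, 77.4 in the epidermis and 1.66 in the periderm, where it was 46.6-fold below the epidermis (8.15 to 1862). Feedback and inhibitor genes were counted higher in the bud in 5 of 9 cases (11.2% over all genes) and lower in none (median log2 ratio 1.04). Nkd1, a feedback inhibitor inside the cell, was 23.6-fold higher (10.00 to 68.0), and Sostdc1, a secreted inhibitor of Wnt and BMP signals, 7.62-fold (5.84 to 10.0). Kremen2, a receptor for Dickkopf inhibitors, and Rnf43, which removes frizzled receptors, were 2.06-fold and 2.07-fold higher. Lef1, a nuclear partner of beta-catenin, had 195 CPM in the bud and 104 in the epidermis, a ratio of 1.88 (1.36 to 2.57) that was under the 2-fold limit, but only 9.97 CPM in the periderm. Axin2 had 60.8, 34.2 and 19.9 CPM in the same order and 109 CPM in the mesenchyme. In the periderm none of the 8 counted feedback genes was higher than in the epidermis and 4 were lower, beside 12.8% and 8.80% over all genes.

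**Figure D3:**
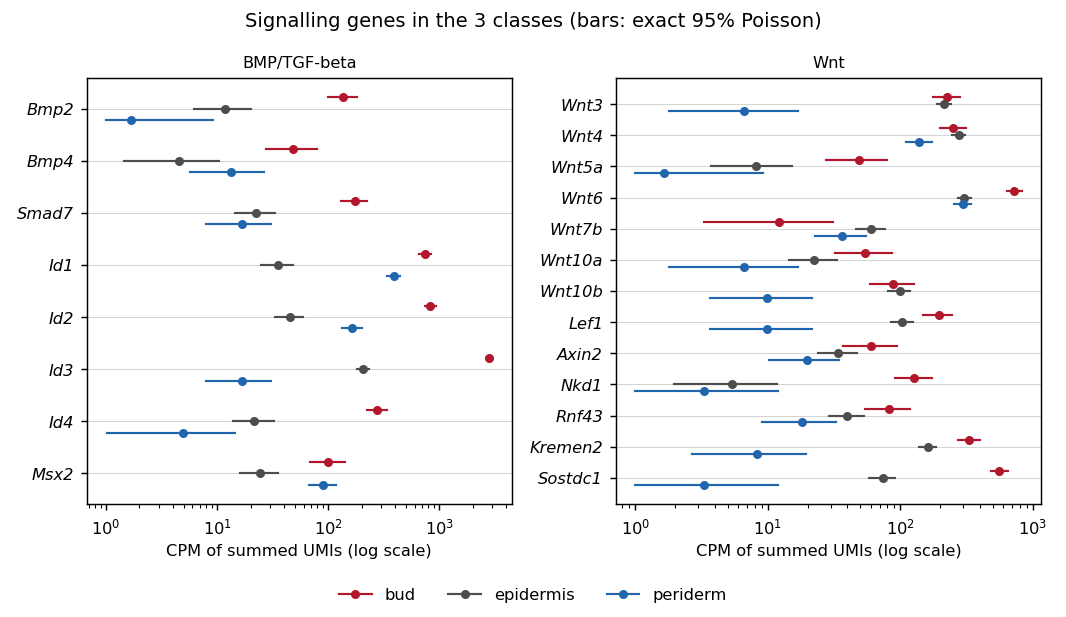
CPM of the summed UMIs (x axis, log scale) of BMP/TGF-beta genes (left) and Wnt genes (right) in bud, epidermis and periderm; bars are exact 95% Poisson intervals, drawn from 1 CPM where they reach lower. The bud lies to the right of the epidermis for Bmp2, Bmp4, Smad7 and the Id genes, while Wnt3, Wnt10b, Lef1 and Kremen2 lie far to the left in the periderm alone.

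Of 32 regulators of bud formation, 25 were counted between bud and epidermis: 10 were higher in the bud, 1 (Bcl11b) was lower and 14 were neither, with a median log2 ratio of 0.48, beside 11.2% higher and 6.45% lower over all genes. The list holds Bmp2, Bmp4, Id4, Sostdc1, Wnt6 and Wnt10a, which were described above. Tbx3 was 5.48-fold (4.13 to 7.30) and Gata3 5.54-fold (4.27 to 7.23) above the epidermis; Gata3 was found in 18 of 19 bud cells and in 5 of 129 mesenchymal cells. Sox11, a transcription factor of embryonic progenitors, had 976 CPM in the bud and 377 in the epidermis. Tfap2b had 149, 248 and 169 CPM in bud, epidermis and periderm, and Trp63, the epidermal regulator, 228, 174 and 26.6. Elf5, a regulator of secretory differentiation in the adult gland, was at 0 UMIs in bud and epidermis and had 149 CPM (120 to 184) in the periderm, where 28 of 33 cells held it. This level was at least 55.3-fold above the epidermis and at least 16.4-fold above the bud, with 3 UMIs taken in place of 0.

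Of 22 FGF and EGF pathway genes, 10 were counted between bud and epidermis, of which 3 were higher in the bud, 1 was lower and 6 were neither; between periderm and epidermis 5 of 10 were higher in the periderm and 3 lower. The shares over all genes were 11.2% and 6.45% for the first comparison and 12.8% and 8.80% for the second. Fgfr2, the receptor for epithelial FGF signals, did not separate bud from epidermis (252 and 247 CPM, ratio 1.02, 0.790 to 1.31) and was 8.25-fold lower in the periderm (5.12 to 14.1). The periderm instead had more Fgfr3 (36.5 against 2.70 CPM) and more of the feedback genes Spry1 and Spry2 (2.98-fold and 2.83-fold), but less Dusp6 and Etv5 (11.9-fold and 5.81-fold lower). Etv5 was also 2.69-fold lower in the bud than in the epidermis (1.51 to 5.20), whereas the receptor Fgfr1 and the feedback gene Spry4 were each 2.76-fold higher (1.01 to 7.33) on 9 bud UMIs, and the ligand Epgn 2.63-fold (1.21 to 5.59), with 71.4% of its bud UMIs in 1 cell. The Notch target Hes1 was 4.28-fold higher in the bud (3.77 to 4.87) and 3.18-fold higher in the periderm (2.82 to 3.58) than in the epidermis. Its receptor Notch1 had 310, 300 and 492 CPM in bud, epidermis and periderm, Notch3 was 23.1-fold higher in the periderm (8.47 to 87.9), and the ligand Jag2 was 3.85-fold lower in the bud (1.79 to 9.85) and 49.3-fold lower in the periderm (8.63 to 1969). Hes1 in the periderm was uneven, from 0 through a median of 558 to 13292 CPM in 1 cell. Only 5 of 11 hedgehog genes could be counted between bud and epidermis and none of them passed, a number too small to set beside the 11.2% higher and 6.45% lower over all genes. Of 8 counted ectodysplasin and NF-kappaB genes, 3 (Nfkb2, Relb and Cxcl10) were higher in the bud and none lower; the Cxcl10 transcripts came from 6 bud cells, 64.9% of them from 1, and Cxcl10 was lower in the bud (log2 ratio -2.32) once the cells with both marker sets were left out.

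Keratins differed between all of the classes. Krt8 and Krt18, the simple-epithelial pair, had 733 and 644 CPM in the bud and 341 and 714 in the periderm, against 50.4 and 138 in the epidermis. Krt15 had 551 CPM in the epidermis and 341 in the periderm but only 5 UMIs in 3 bud cells (15.2 CPM, 4.94 to 35.5), 36.2-fold below the epidermis (15.4 to 112). Krt14 had 1456, 1745 and 379 CPM, and Krt5 687, 937 and 1952 CPM, in bud, epidermis and periderm, so that these usual partners pointed opposite ways in the periderm. These genes entered the epithelial gate as a sum and are described without a test. Of keratins outside the gates, Krt7, Krt19 and Krt23 were counted higher in the periderm than in the epidermis, Krt7 by 8.99-fold (5.76 to 14.6) and Krt19 by 20.4-fold (11.6 to 39.3), and Krt7 and Krt19 were present as 1 and 2 UMIs in the bud.

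**Figure D4:**
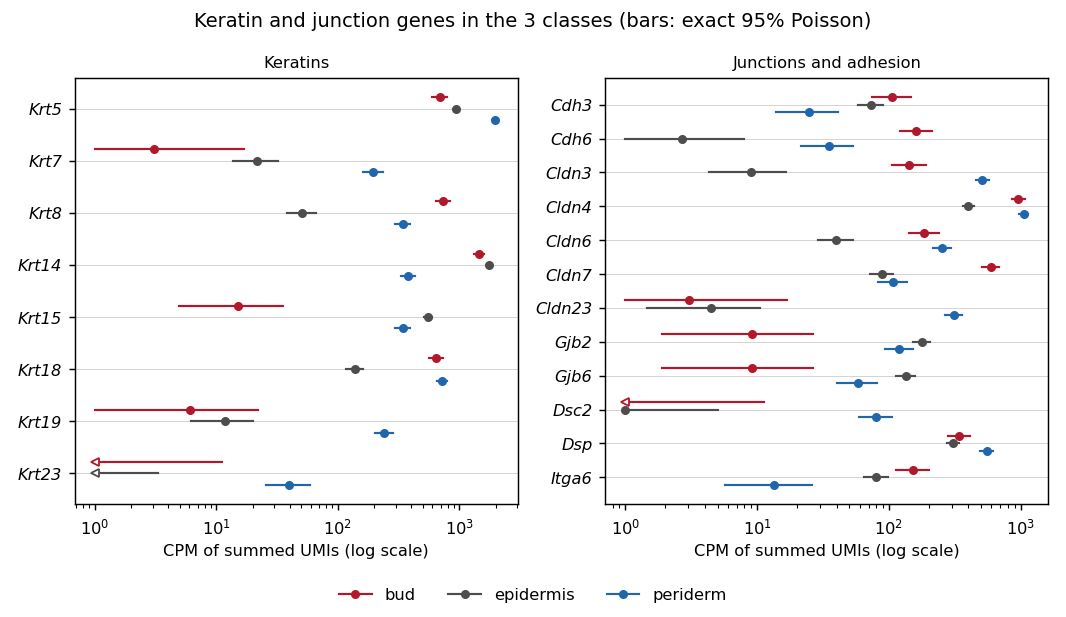
CPM of the summed UMIs (x axis, log scale) of keratin genes (left) and junction genes (right) in the 3 classes, with exact 95% Poisson intervals; open triangles at the left edge mark 0 UMIs and intervals are drawn from 1 CPM. Krt15, Gjb2 and Gjb6 are lowest in the bud, with Gjb6 also lower in the periderm (58.1 CPM) than in the epidermis (135 CPM), and Krt7, Krt19, Krt23, Cldn23 and Dsc2 are high in the periderm alone.

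Junction genes differed between the classes, with some shared by 2 of them. The claudins, which seal tight junctions, were higher outside the epidermis: Cldn3 was 15.9-fold (7.91 to 35.2) higher in the bud and 56.8-fold (30.5 to 120) higher in the periderm, Cldn6 4.68-fold (3.13 to 7.06) and 6.42-fold (4.56 to 9.19), and Cldn4 2.39-fold (2.06 to 2.77) and 2.64-fold (2.33 to 2.98). Cldn7 was high in the bud alone, at 590 CPM against 88.2 in the epidermis and 108 in the periderm, and Cldn23 in the periderm alone, at 311 CPM against 3.04 in the bud and 4.50 in the epidermis. The tight-junction proteins Ocln and Marveld2 were 5.02-fold (3.57 to 7.18) and 4.98-fold (3.24 to 7.85) higher in the periderm than in the epidermis. The bud held little of a connexin pair of the epidermis: Gjb2 had 177 CPM in the epidermis and 120 in the periderm, but 3 UMIs in the bud, 19.4-fold below the epidermis (6.56 to 95.1), and Gjb6 was 14.8-fold lower (4.97 to 72.6). Gja1, another connexin, was not lower in the bud (344 against 282 CPM) and was 3.38-fold higher in the periderm (2.94 to 3.90). Over the 22 adhesion and tight-junction genes, 6 of 17 counted were higher and 2 lower in the bud than in the epidermis once the gate gene Epcam was left out, beside 11.2% and 6.45% of all genes, with a median log2 ratio of 0.86.

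Desmosome genes, which couple keratin filaments between cells, were higher in the periderm than in the epidermis in 7 of 10 counted cases (12.8% over all genes) and lower in none (median log2 ratio 1.53, against 0.04 over all genes). Dsg3 was 49.4-fold (18.7 to 184) and the envelope-forming plakins Ppl and Evpl 22.8-fold (12.6 to 45.0) and 16.1-fold (5.77 to 62.5) higher. Dsc2 had 48 UMIs in the periderm, 1 in the epidermis and 0 in the bud, whereas desmoplakin itself (Dsp) was 1.80-fold higher (1.54 to 2.10), within the limit. Genes of the basal layer differed the other way: of 17 basal epidermis genes counted outside the gates, 15 were lower in the periderm and none was higher (median log2 ratio -2.51), beside 8.80% lower over all genes. Col17a1, a hemidesmosome collagen, had 8.31 CPM in the periderm and 133 in the epidermis, and the plakin Dst was 14.2-fold (7.06 to 33.2) and the integrin Itga6 6.03-fold (2.93 to 14.4) lower. In the bud, 5 of 17 such genes were lower than in the epidermis and 1 higher, beside 6.45% and 11.2% over all genes; Col17a1 was 5.48-fold lower (2.71 to 12.9), but Itga6 was not (152 against 80.1 CPM).

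The epidermis was distinguished from the periderm most strongly by Snai2, a zinc-finger repressor. It had 207 CPM in the epidermis, from 0 through a median of 167 to 734 in single cells, and 1 UMI in the whole periderm, a 125-fold difference (22.2 to 4945); the bud had 146 CPM. Ifitm3 had 1444, 1100 and 59.8 CPM in bud, epidermis and periderm, and Icam1, an adhesion molecule, 82.1, 179 and 6.64. Some epidermal genes were low in both other classes: Dcn, a proteoglycan best known from mesenchyme, had 77.4 CPM in the epidermis and 1 UMI each in bud and periderm, and Fbln2, a matrix protein, 130, 12.2 and 3.32 CPM in epidermis, bud and periderm. Dcn was also in 104 of 129 mesenchymal cells at 491 CPM, and in 31 of 46 epidermis cells, whose depth was higher. Slc1a3, a glutamate transporter, had 65.7 CPM in the epidermis, 1 UMI in the bud and none in the periderm. Igfbp5, a binding protein of insulin-like growth factors, had 73.0 CPM in the bud (46.7 to 109) and 656 in the epidermis (610 to 706), and Lrig1, an inhibitor of EGF receptors, was at least 6.02-fold lower in the bud, with 0 UMIs against 61.

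Several of the genes that led the periderm were almost absent elsewhere. Osgin1, an oxidative-stress response gene, had 203 CPM (168 to 242) in the periderm, where 28 of 33 cells held it with a median of 173 and a maximum of 569 CPM, and no UMI in any bud, epidermis or mesenchymal cell. Rhov, a small GTPase, and Tnfaip2 had 1 UMI each in the epidermis and 249 and 304 CPM in the periderm, ratios of 277 (48.9 to 11003) and 338 (59.8 to 13407). S100a14 was 90.4-fold (38.2 to 281) and Penk, which encodes proenkephalin, 94.6-fold (36.4 to 350) higher. Genes higher in the periderm than in the bud included metabolic ones: the glucose transporter Slc2a3 had 899 CPM (825 to 978) in the periderm, 33.3 in the epidermis and 6.08 in the bud, and Cyp1a1, a xenobiotic-metabolising enzyme, 1545, 146 and 85.1. Slc2a1, the related glucose transporter, had 199, 197 and 79.0 CPM in that order. H19, an imprinted non-coding RNA, had 3786 CPM (3632 to 3944) in the periderm, 557 in the epidermis and 246 in the bud, and every periderm cell held it, from 368 through a median of 3643 to 9924 CPM; the mesenchyme had 1649.

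Genes that were higher in the bud than in the periderm, beyond those above, included Map1b, a microtubule-associated protein, with 584 CPM in the bud, 84.6 in the epidermis and 4.98 in the periderm. Every bud cell held it, from 35.7 through a median of 427 to 1582 CPM. Tenm2, an adhesion receptor of the teneurin family, and Mir100hg, a microRNA host transcript, were 112-fold (19.3 to 4481) and 40.3-fold (16.7 to 126) above the periderm, and 2.86-fold (2.00 to 4.08) and 6.19-fold (4.48 to 8.63) above the epidermis. Vim, an intermediate filament protein of mesenchyme, had 681 CPM in the bud, 59.4 in the epidermis and 154 in the periderm, in 18 of 19 bud cells. The part of mesenchymal RNA in this level was not tested.

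The classes differed in cell-cycle transcripts. On the list of 13 genes that the study used for cell-cycle scoring, 9 were lower in the bud than in the epidermis (6.45% over all genes) and none higher (median log2 ratio -1.28), while 3 were lower in the periderm (8.80% over all genes). Per 5000 UMIs, bud cells held 1 to 37 UMIs of the list (median 5), epidermis cells 2 to 56 (median 18) and periderm cells 1 to 48 (median 6), against a median of 15 in the mesenchyme. Cells with 2 or more UMIs of the mitotic pair Top2a and Mki67 made up, at this depth, 1 of 19 bud cells (5.26%, exact binomial 95% interval 0.133 to 26.0), 21 of 46 epidermis cells (45.7%, 30.9 to 61.0) and 9 of 33 periderm cells (27.3%, 13.3 to 45.5), and 31 of 129 mesenchymal cells. A single cell gave 84.2% of the bud's Top2a UMIs. Mitotic genes were scarce in the bud, where Ccnb1, Ccnb2 and Cenpa had 1 UMI each. On a list of 22 other cell-cycle genes, 8 of 20 counted were lower in the bud than in the epidermis, 3 higher and 9 neither, beside 6.45% and 11.2% over all genes. Those higher were Cdkn1a and the D-type cyclins Ccnd1, by 10.8-fold (5.95 to 20.8), and Ccnd2, by 2.52-fold (2.27 to 2.80), with every bud cell holding Ccnd2. The inhibitor Cdkn1a was high in the periderm, at 658 CPM, 36.5-fold above the epidermis (23.3 to 60.5), against 79.0 CPM in the bud (the order of bud and epidermis turned after thinning), together with Cdkn1b (141 CPM in the periderm, 58.5 in the epidermis and 21.3 in the bud).

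**Figure D5:**
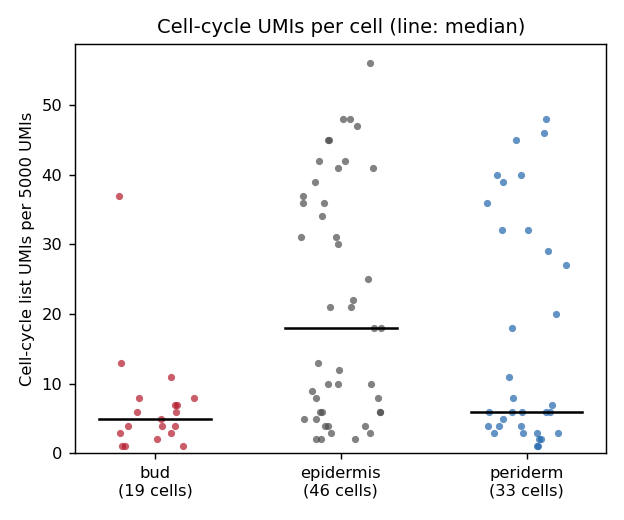
UMIs of the 13 cell-cycle genes per cell after thinning to 5000 UMIs (y axis, linear) in bud, epidermis and periderm; points are cells and black lines are medians. The medians are 5, 18 and 6, and the ranges overlap, with 1 bud cell at 37.

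Positional and stress genes also differed. Of 28 Hox genes, 10 were counted between periderm and epidermis: the anterior genes Hoxa3 and Hoxa5 were higher in the periderm (7.38-fold, 2.94 to 22.1, and 5.87-fold, 2.91 to 12.8), and Hoxa7, Hoxa9, Hoxc6 and Hoxc8 were lower, where 12.8% and 8.80% of all genes were. Hotairm1, a non-coding RNA of the Hoxa cluster, had 292 CPM in the periderm, 72.9 in the epidermis and 6.08 in the bud, and the bud held no UMI of Hoxa3 or Hoxa5. Between bud and epidermis 7 were counted, of which Hoxb2 and Hoxb4 were higher in the bud, Hoxa7 and Hoxa9 lower and 3 neither, beside 11.2% and 6.45% over all genes. Stress and immediate early genes summed to 7451 CPM in the bud, 6415 in the epidermis, 11805 in the periderm and 10525 in the mesenchyme. Of 15 such genes 5 were higher in the periderm than in the epidermis and 1 was lower, beside 12.8% and 8.80% over all genes. The periderm had more of the near-identical pair Hspa1a and Hspa1b (571 against 54.9 and 1311 against 221 CPM in the epidermis), which cannot be told apart with certainty, and of Hspb1, Dnajb1 and Junb. Their distribution was uneven, since Hspa1a ran from 0 through a median of 101 to 6648 CPM in periderm cells. Whether the sort or the dissociation took part in these values was not tested. Of 11 counted glycolysis genes, 3 were lower in the bud than in the epidermis and 8 were neither, beside 6.45% lower over all genes. Gapdh, Eno1 and Slc2a1 were 2.15-fold (1.90 to 2.45), 2.44-fold (1.77 to 3.45) and 2.49-fold (1.66 to 3.90) lower in the bud. In the periderm 2 of the 11 (Hk2 and Pfkl) were higher and 9 neither, near the 12.8% over all genes, with a median log2 ratio of 0.06.

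The luminal and basal lineage markers that the study followed were uneven at E13.5. These markers were chosen by the study on the libraries of this series and are no independent evidence. Anxa1, a luminal marker, was in 4 of 19 bud cells (21.1%), 25 of 46 epidermis cells (54.3%) and 33 of 33 periderm cells (100%), at 15.2, 67.5 and 943 CPM, against 6 of 129 mesenchymal cells (4.65%). Cxcl14, a basal marker, was in 19 of 19 bud cells (100%), 45 of 46 epidermis cells (97.8%) and 23 of 33 periderm cells (69.7%). The mesenchyme also held it in 65.9% of cells, at 160 CPM, so the share of periderm cells with a UMI was close to that in the mesenchyme, at median depths of 18024 and 16573 UMIs. Lgals3 had at most 12 UMIs in any class. Krt8, Krt18, Krt5 and Trp63 occurred together in 13 of 19 bud cells (68.4%, 43.4 to 87.4), 8 of 46 epidermis cells (17.4%, 7.82 to 31.4) and 5 of 33 periderm cells (15.2%, 5.11 to 31.9), and in 0 of 129 mesenchymal cells (exact upper limit 2.82%). These are shares of cells with a UMI of every gene, not of cells that express them. At 5000 UMIs a cell these shares were 26.3%, 6.52% and 3.03%. The keratins of this set belong to the epithelial gate, Trp63 does not. Mesenchymal cells were chosen with a collagen sum well above the sum that holds these keratins. Their share of 0 was thus nearly fixed by the gate and bears on nothing.

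The same gates were applied to the later libraries, which shared no kept barcode with the E13.5 epithelium. The E14.5 library gave 28 bud, 10 epidermis and 7 periderm cells, the E15.5 library 97, 115 and 314, and the P0 library 3, 142 and 84. The bud share of epithelial cells was 19.4% in the E13.5 library, 62.2% in the E14.5 library, 18.4% in the E15.5 library and 1.31% at birth. The later periderm classes passed their gate almost wholly on Krt17. At E14.5 this class held 173 UMIs of Krt17, 1 of Gabrp and 0 of Hopx, Osgin1 and Elf5. At E15.5 the periderm gate took 59.7% of the epithelium, with 8618 UMIs of Krt17, 6 of Gabrp and 93 of Hopx. Osgin1 and Elf5 were at 0.328 and 1.53 CPM in that class. The later shares and ratios therefore describe cells that passed the gates, which need not be the classes of E13.5. The 10 genes that led the bud over the epidermis at E13.5 were all on the same side at E14.5, 9 of them with an interval that excluded 1, and of the 10 that led in the other direction 9 were on the same side and 8 excluded 1. In the E15.5 library these tallies were lower, with 8 of 10 on the same side and 5 excluding 1 for the genes higher in the bud, and 6 of 10 and 5 for those lower. Cdh6 was 20.3-fold (8.59 to 63.2), Tbx3 9.10-fold (4.69 to 20.2) and Dach2 10.7-fold (5.74 to 22.7) above the epidermis at E14.5. Id1 and Id3 were 5.02-fold (3.06 to 8.80) and 2.64-fold (2.12 to 3.30) above it, and Gjb2 and Gjb6 each had 1.39 CPM in the bud against 79.0 and 101 CPM in the epidermis. Sostdc1 was not higher in the bud at E14.5 (ratio 0.823, 0.598 to 1.14), Wnt3, which did not separate the classes at E13.5, was 4.88-fold higher (2.70 to 9.68), and Igfbp5 was higher instead of lower (1.90, 1.43 to 2.55). Of the 10 leading periderm genes over the epidermis, 4 were on the same side at E14.5, 1 of them with an interval that excluded 1, and 4 had at most 3 UMIs in both classes; at E15.5, 8 were on the same side and 3 excluded 1. At E15.5, Tbx3 was 7.44-fold (5.30 to 10.7) and Cdh6 2.59-fold (2.13 to 3.15) above the epidermis class, whereas Krt8 (1.03, 0.966 to 1.10) and Krt15 (0.983, 0.886 to 1.09) did not separate the classes that the gates took. These ratios compare single libraries, and the change between stages was not tested.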

How the data were processed

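Each library was deposited as a 10x matrix of raw UMI counts per gene and barcode, which the authors made with Cell Ranger 6.0.0 (3.1.0 for E15.5, per the file headers) on mm10. Of 32285 listed genes, 32158 identifiers were found in GENCODE M21. Cells, genes and lists were chosen with earlier results of these data known. Counts were summed per class and divided by the class total. Ratios have an exact conditional binomial 95% interval, and a class at 0 was given the floor of 3 UMIs. Leading genes were, per comparison and direction, the 10 with the interval limit nearest 1 farthest from 1, with a UMI in at least 25% of the cells of the higher class, leaving out the 15 gate genes. Other named genes are list members that differed at least 2-fold or had the most UMIs, and markers the study used. Smad6, Bcl11b, Aqp3 and Mki67 were named outside this rule. Doublets called by Scrublet (scanpy 1.11.5) were kept and left out in an alternative. The ratio and its interval were tested on simulated counts. Python 3.11.15, numpy 2.4.6, scipy 1.17.1, pandas 2.3.3 and matplotlib 3.10.9 were used. Alternatives changed the cell and class gates, depth, weighting, gene minimum and scaling.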

Additional observations from a re-analysis of the deposited data

How the results depend on the processing

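The class sizes stayed within 1.5 times the reported ones under all the gate alternatives (15 to 22 bud, 46 to 49 epidermis and 30 to 33 periderm cells). Thinning every cell to 5000 UMIs, which leaves fewer genes over the minimum of 20 UMIs, gave 206 higher and 149 lower genes for bud over epidermis, 311 and 213 for periderm over epidermis, and 180 and 236 for bud over periderm. With no minimum of UMIs per gene, 1244 genes were counted higher in the bud than in the epidermis and 1211 higher than in the periderm. Of 4896 log2 ratios of named genes over 12 alternatives, 4556 were still at least 2-fold and 5 changed sign. Some alternatives could not move a ratio: dropping the gene minimum leaves every named ratio as it was. The stricter class gates removed no bud or epidermis cell, so bud over epidermis stayed the same there. After thinning, 219 of 408 were still 2-fold, against 362 to 408 under the other alternatives. The 5 that changed sign included Cxcl10 (-2.32) and Krt17 (-0.70), bud over epidermis, without the cells that held both marker sets. Cdkn1a, bud over epidermis (-0.10), and Nfkb1, bud over periderm (-0.05), changed after thinning. Dach2, periderm over epidermis (-0.09), changed with the gates applied to thinned counts. The cause was not tested for any of them. No paired analysis was possible because each stage has 1 library and the classes are cells of the same library. The bud rests on 19 cells and 328938 UMIs, so 1 cell can carry a gene, and ratios on 1 to 3 UMIs have wide intervals. Embryos were pooled, so the spread between animals is unknown.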
